A study of Mus musculus with 16 samples.

Results

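GFP+ MPCs that had been sorted from treated myoblast cultures were compared with myoblasts that had been made to differentiate. The comparison used 6 of the 16 libraries of the series, 3 of each group, chosen by their labels alone, and it took in all genes. Each library was poly(A) RNA of mouse skeletal muscle cells in culture, measured by RNA sequencing. All 6 came from parental cell lines of male animals 16 weeks old, with the genotype Pax7-nGFP, in which a nuclear green fluorescent protein reports on the Pax7 gene. The GFP+ MPCs had been grown as myoblasts for 2 to 3 passages. They were then kept for 5 to 6 passages in a medium with forskolin (5 µM), Repsox (5 µM) and a compound the labels call CHIR9901 (3 µM), together with 10% fetal bovine serum, 10% KnockOut Serum Replacement and 10 ng/ml basic FGF. Between 300000 and 500000 GFP+ cells were sorted for RNA. The differentiated myoblasts had been placed in a medium with 2% horse serum for 3 days and were harvested, without a sort, at passage 4 to 5. The labels do not spell out the letters MPC. Forskolin is known to raise cyclic AMP and Repsox to block the TGF-beta type I receptor.

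As background, adult skeletal muscle is repaired by satellite cells, stem cells that lie between the muscle fibre and its basement membrane and that carry the transcription factor Pax7. When they are activated they divide as myoblasts under Myf5 and MyoD. They then leave the cell cycle, switch on myogenin and the Mef2 factors, fuse into myotubes and build sarcomeres. Notch signalling is known to hold satellite cells in the undifferentiated state.

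The 6 libraries held between 19567451 and 23298346 estimated counts each, and the 16 libraries of the series between 19300307 and 29127963 counts. Levels are given below as CPM (counts of a gene scaled to a common library total, with TMM factors), and differences as log2 fold changes of GFP+ MPC over differentiated myoblasts with their standard error (SE). A gene was called where the adjusted p of edgeR's quasi-likelihood test was below 0.05. Over the 15 replicated libraries, the first principal component of all tested genes held 50.7% of the variance and put the 3 GFP+ MPC libraries on one side and the 3 differentiated libraries on the other. Sorted GFP+ myoblasts lay on the side of the GFP+ MPCs, and unsorted (bulk) MPC cultures on that of the differentiated libraries. The first component is thus not this contrast alone. The second (28.0%) put both MPC groups on one side and all myoblast groups on the other. The sort, the RNA kit (a micro kit for sorted and a mini kit for unsorted cells), the medium, the serum, the compounds and the passage number all differ with the group, so their parts in any difference cannot be told apart. In these bulk samples, fewer cells of a type and less RNA per cell cannot be told apart either. The labels call the samples biological replicates and do not say which animal each came from.

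The markers of both labels were where the labels put them. Pax7, the gene the reporter follows, was at 596, 868 and 835 CPM in the GFP+ MPC libraries and at 25.5, 65.1 and 46.0 CPM in the differentiated ones, and since the cells were gated on that reporter its level checks the sort and is not a finding. Myh3, the embryonic myosin heavy chain, was at 159, 427 and 257 CPM in the GFP+ MPCs and at 28999, 23219 and 25536 CPM in the differentiated myoblasts. GFP+ MPC replicate 2 had the highest Myh3 of its group, and the lowest differentiated library was still far above it.

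The 2 groups differed over most of the transcriptome. Of 15533 genes tested, 10971 were called (70.6%), of which 5436 (35%) were higher and 5535 (35.6%) lower in the GFP+ MPCs. Among the called genes, 3482 were at least 2-fold higher (22.4% of those tested) and 3809 at least 2-fold lower (24.5%). A change of at least 32-fold was reached by 390 genes that were higher and 601 that were lower. In 11425 genes (73.6%) all 3 libraries of one group lay above all 3 of the other. For each list below, the members named for the largest differences were picked among such genes. Their lack of overlap was fixed by that choice and is not a finding. The median log2 fold change over all genes was -0.03. With so high a background, a list in which most members were called in mixed directions says little, and the accounts below turn on direction and size. The counts of every list below are to be read beside these shares of 35% higher and 35.6% lower. Scaling by library size alone, without the TMM factors, moved the median of all genes by 0.33 and made 6876 genes higher and 4326 lower, so small differences depend on the scaling.

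**Figure D1:**
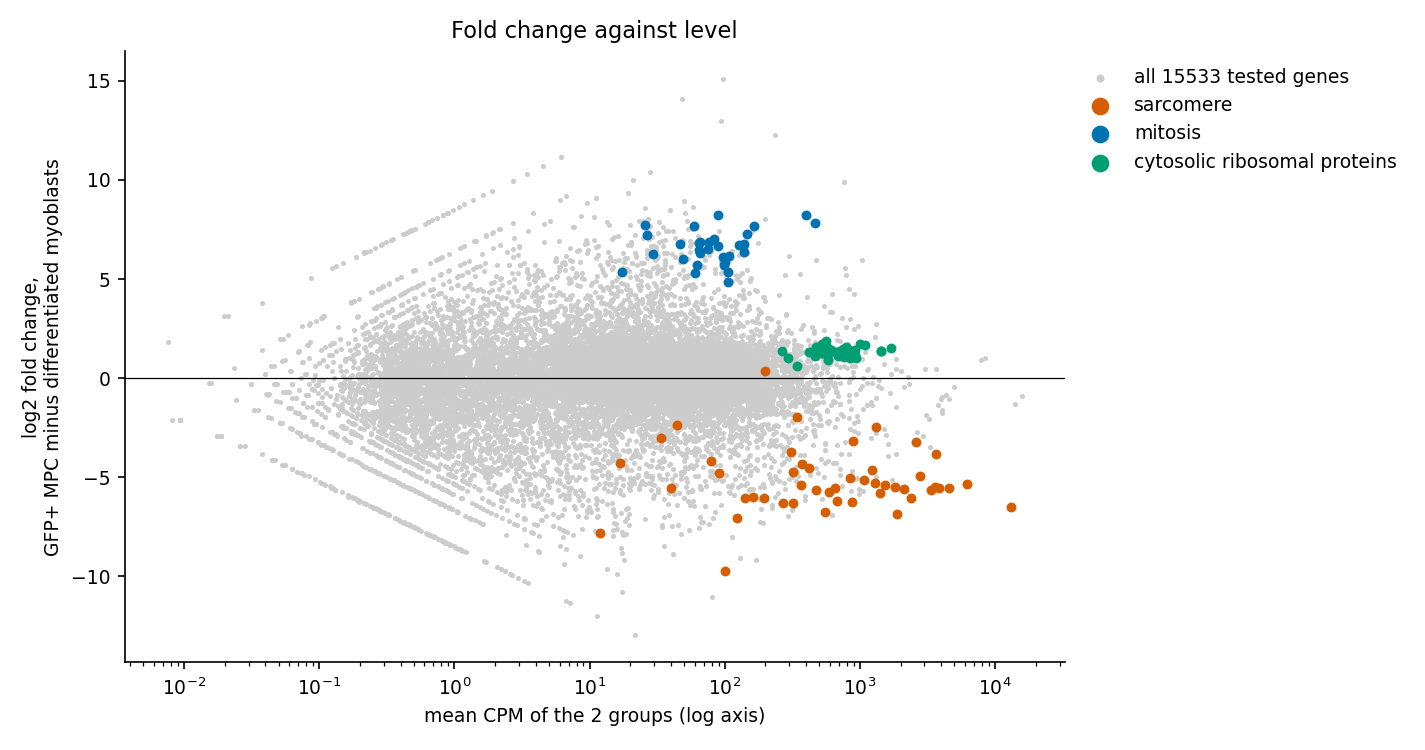
Log2 fold change of GFP+ MPC over differentiated myoblasts (vertical axis) against the mean CPM of the 2 groups (horizontal log axis) for the 15533 genes tested (grey), with the sarcomere, mitosis and cytosolic ribosomal protein lists in colour. The mitosis genes sit together near a median of 6.67, the sarcomere genes near -5.50 and the ribosomal protein genes near 1.34, and the diagonal grey lines at low levels are genes with few or no counts in 1 group.

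More of the satellite cell genes were higher than lower in the GFP+ MPCs. Of 32 markers tested, 19 were higher, 8 were lower and 5 were not called, with a median of 1.60 against -0.03 for all genes. The summed level of the list was 9502 to 11016.5 CPM in the GFP+ MPCs and 10520 to 11805 CPM in the differentiated myoblasts. These ranges overlapped, so the list as a sum was not higher. Myf5, a myogenic factor already present in satellite cells, was at 149, 114 and 121 CPM in the GFP+ MPCs and at 18.6, 14.4 and 14.1 CPM in the differentiated myoblasts (3.03 ± 0.29, SE). Hey1, a transcriptional repressor and Notch target, was at 142, 130.0 and 159 CPM against 1.13, 0.955 and 1.85 CPM (6.77 ± 0.35). Heyl, its relative, was at 584, 546 and 640.4 CPM against 5.27, 11.6 and 8.21 CPM (6.14 ± 0.76). The groups were far apart in each of these genes. Calcr, the calcitonin receptor of quiescent satellite cells, was low even where present, at 2.67, 0.843 and 3.08 CPM in the GFP+ MPCs, and differentiated replicate 1 was the single differentiated library with any count (0.0492 CPM). The ratio of the Calcr levels was 123, with a 95% counting interval from 21.8 to 4904, and it rests on that single library for its lower term. Without differentiated replicate 1 the fitted difference of Calcr moved from 6.57 to 8.67.

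The markers against this direction included Egr3, an early growth response factor, at 5.08, 1.26 and 2.84 CPM against 105, 116 and 79.5 CPM (-5.04 ± 0.60), and Fgfrl1, an FGF receptor without a kinase domain (-3.06). Erbb3, a neuregulin receptor, was at 75.7, 108 and 158 CPM against 511, 529 and 552 CPM (-2.22 ± 0.24). Every differentiated library was above every GFP+ MPC library in Egr3 and Erbb3. The markers not called were Cd34, Cdh15, Spry1, Ezr and Chodl. Cdh15 (M-cadherin) was nearly level, at 595, 513 and 591 CPM against 604, 623 and 639.6 CPM, a difference of -0.14 ± 0.13 (SE). Cd34 was called lower with the replicate number as a block (-1.41) and, at -2.13, without GFP+ MPC replicate 2 (-1.21 with it) and, at -1.52, without differentiated replicate 1, and Ezr was called higher with library sizes alone (0.76) and, at 0.64, without GFP+ MPC replicate 2 (0.42 with it).

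The myogenic regulators moved in both directions. Of 19 tested, 11 were higher, 6 were lower and 2 (Eya2 and Eya4) were not called. Myog, which starts terminal differentiation, was at 50.4, 119 and 144 CPM in the GFP+ MPCs and at 979, 988 and 1034 CPM in the differentiated myoblasts (-3.26 ± 0.46). Mef2c, a cofactor of the myogenic factors, was at 20.1, 35.6 and 43.5 CPM against 2075, 1808 and 1903 CPM (-5.87 ± 0.32). GFP+ MPC replicate 1 had the lowest Myog and Mef2c of all 6 libraries. Myod1, the commitment factor, was at 95.1, 207 and 285 CPM against 356, 332 and 299 CPM, and although no GFP+ MPC library reached the lowest differentiated one, replicate 3 came close to it. The difference of Myod1 was -0.75 ± 0.27 (adjusted p = 0.0224, with all 3 GFP+ MPC libraries below all 3 differentiated ones). It was not called in a fit of the 2 groups alone (adjusted p = 0.0842), with library sizes alone (0.173) or without differentiated replicate 1 (0.0628). Eya2 was called lower, at -3.13, when GFP+ MPC replicate 3 was left out (-1.38 with it).

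Id3, Id2 and Msc, which restrain the myogenic factors, were higher in the GFP+ MPCs. Id3, which sequesters the partners of the myogenic factors, was at 301, 158 and 342 CPM against 6.01, 2.70 and 2.08 CPM (6.20 ± 0.40). Id2, of the same family, was at 126, 43.6 and 133 CPM against 6.40, 8.15 and 5.68 CPM (3.90 ± 0.41). Msc (musculin, or MyoR), a repressor that competes for the same DNA sites, was at 15.1, 112 and 22.7 CPM against 0.246, 0.0562 and 0.281 CPM (7.95 ± 1.03). GFP+ MPC replicate 2 was the lowest of its group in Id2 and Id3 and by far the highest in Msc. Without replicate 2 the difference in Msc was 6.56, and without differentiated replicate 1 that in Id3 was 6.80.

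**Figure D2:**
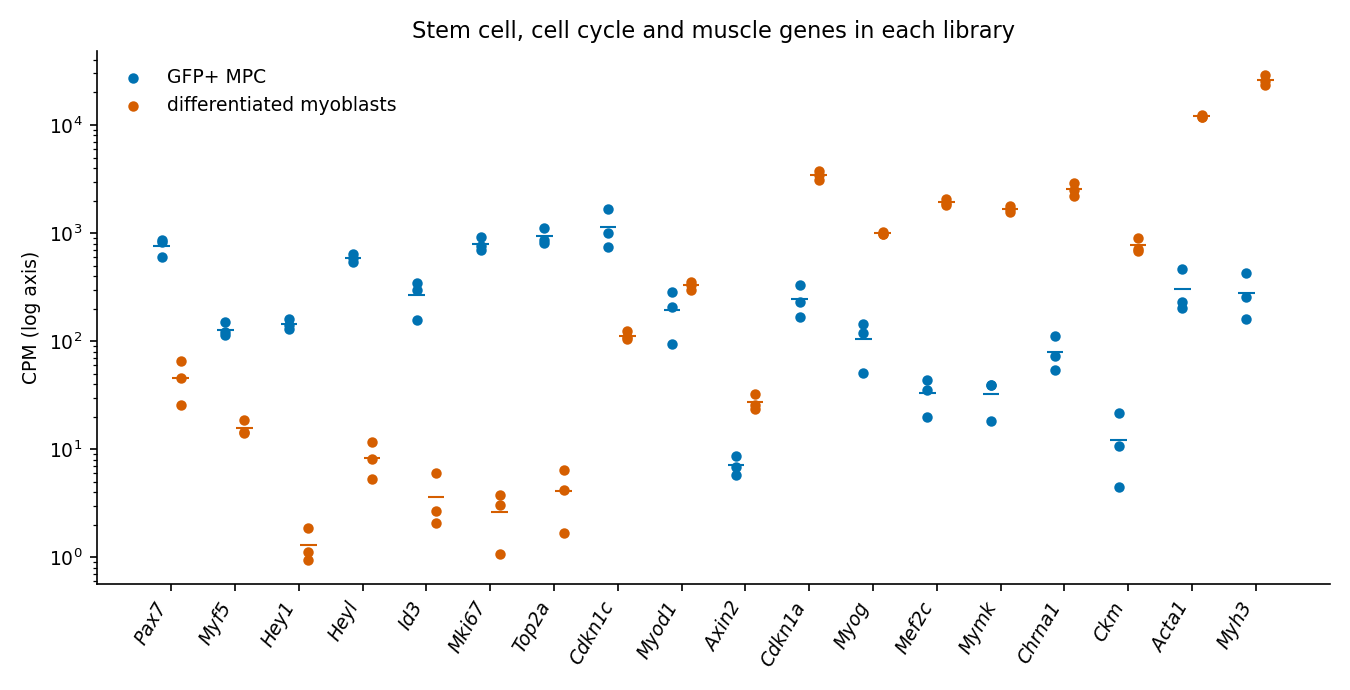
CPM (log axis) of 18 named genes in each of the 3 GFP+ MPC libraries (blue) and the 3 differentiated libraries (orange), with the group mean as a short line. The groups are apart in every gene shown, and they come nearest in Myod1, where GFP+ MPC replicate 3 (285 CPM) lies just under differentiated replicate 3 (299 CPM).

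The contractile genes were low in the GFP+ MPCs almost without exception. Of 48 sarcomere genes tested, 47 were lower and 1 was higher, with a median of -5.50. The list took 0.340% to 0.715% of all counts in the GFP+ MPC libraries and 11.6% to 12.8% in the differentiated ones. Acta1, skeletal muscle actin, was at 231, 469.8 and 202 CPM against 12357, 11969 and 11861 CPM (-5.32 ± 0.32). Tcap, which caps titin at the Z disc, was at 1.68, 2.28 and 1.58 CPM against 257, 247 and 232 CPM (-7.05 ± 0.30). Mybph, a myosin binding protein, was at 23.9, 43.1 and 29.1 CPM against 3803, 3725 and 3671 CPM (-6.86 ± 0.32). GFP+ MPC replicate 2 was the highest of its group in each of these genes and in the summed list, and stayed far below the differentiated libraries.

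Myh2, a fast adult myosin heavy chain, varied within the differentiated group, at 83.5, 126 and 389.8 CPM, against 0.317, 0.253 and 0.118 CPM in the GFP+ MPCs (-9.76 ± 0.94). Without differentiated replicate 3, the highest, the difference in Myh2 was -8.83. Myl2, the slow regulatory light chain, was at 0.0907, 0.126 and 0.0789 CPM against 16.0, 20.7 and 34.8 CPM (-7.84 ± 0.55), or -7.19 with length-scaled counts. The exception to the direction of the list was Tpm3, a tropomyosin gene with muscle and cytoskeletal products. It was at 214, 207 and 249 CPM against 194, 171 and 151 CPM (0.38 ± 0.14, adjusted p = 0.0296). All 3 GFP+ MPC libraries were above all 3 differentiated ones. The difference of Tpm3 turned to -0.37 with length-scaled counts. It was not called without GFP+ MPC replicate 3 (0.29), differentiated replicate 2 (0.37) or differentiated replicate 3 (0.29).

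The machinery of excitation-contraction coupling, which turns a nerve impulse into calcium release, was low as well. Of 25 genes, 23 were lower, none was higher and 2 (Mrln and Asph) were not called, with a median of -4.04. Cacna1s, the voltage sensor of the T-tubule, was at 11.1, 10.2 and 9.07 CPM against 1432, 1172 and 1098 CPM (-6.93 ± 0.25). Hrc, a calcium-binding protein of the sarcoplasmic reticulum, was at 9.97, 15.8 and 6.27 CPM against 753, 790.3 and 772 CPM (-6.18 ± 0.36). Casq2, a calsequestrin that stores calcium in the same compartment, was at 37.8, 46.8 and 36.3 CPM against 2219, 1921 and 2109 CPM (-5.69 ± 0.26). These genes were picked among members without overlap of the groups, so their separation is set by that choice. Asph, which has catalytic and sarcoplasmic reticulum products, was called higher with library sizes alone (0.53) and lower with length-scaled counts (-0.72).

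Fusion genes moved in both directions, more of them lower. Of 22 tested, 12 were lower, 6 were higher and 4 were not called, with a median of -0.92. Mymk (myomaker), the membrane protein that myoblasts need to fuse, was at 18.2, 39.8 and 39.4 CPM against 1678, 1766 and 1567 CPM (-5.68 ± 0.33). Dysf (dysferlin), of membrane repair, was at 4.49, 8.60 and 4.30 CPM against 392, 379 and 375 CPM (-6.04 ± 0.36), and Cav3, the muscle caveolin, differed by -6.43 ± 0.45. Kirrel, an adhesion receptor, ran the other way at 139, 118 and 197 CPM against 6.21, 18.3 and 13.2 CPM (3.60 ± 0.40). Dock1, which activates Rac at sites of fusion, was at 96.4, 81.6 and 96.2 CPM against 17.7, 17.1 and 16.6 CPM (2.41 ± 0.18). The groups did not overlap in any of these 5 genes. The members not called were Cdon, Cdh15, Stab2 and Adgrb1.

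Genes of the neuromuscular synapse were lower in 13 of 14 cases, with a median of -2.84. Chrna1, the alpha subunit of the acetylcholine receptor, was at 54.5, 73.8 and 112 CPM against 2905, 2516 and 2219 CPM (-4.99 ± 0.27). Chrng, the fetal gamma subunit, was at 23.8, 55.1 and 39.5 CPM against 1001, 985 and 747 CPM (-4.53 ± 0.28). Colq, the collagen tail of acetylcholinesterase, was at 4.04, 4.64 and 2.21 CPM against 101, 93.4 and 94.4 CPM (-4.73 ± 0.33). Agrn (agrin), the organizer of the synapse and a proteoglycan of the basement membrane, was the member higher in the GFP+ MPCs, at 244, 219 and 177 CPM against 34.3, 28.8 and 39.1 CPM (2.65 ± 0.20). All 3 libraries of one group were above all 3 of the other in these 4 genes. Chrne, the adult epsilon subunit, was at 0.181, 0.126 and 0 CPM against 5.96, 10.7 and 4.83 CPM (-6.10 ± 0.71), with -6.74 without GFP+ MPC replicate 1, -5.50 without replicate 3 and -5.23 with length-scaled counts.

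The promoters of Chrna1, Chrng and Acta1 are shown because they are promoters of genes of the sarcomere and synapse lists in the RefSeq table (GRCm38.p6, from 250 bases before to 50 after the start) that hold the E-box CAGCTG, a form that myogenic factors are known to bind. Capitals mark each CAGCTG. It reads the same on both strands.
Chrna1 (chr2:73580289-73580588, minus strand): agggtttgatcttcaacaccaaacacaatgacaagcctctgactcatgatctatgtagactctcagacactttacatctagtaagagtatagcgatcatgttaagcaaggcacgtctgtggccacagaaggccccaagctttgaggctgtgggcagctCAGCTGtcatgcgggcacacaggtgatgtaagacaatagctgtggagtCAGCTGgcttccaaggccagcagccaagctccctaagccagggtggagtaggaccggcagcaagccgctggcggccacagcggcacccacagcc
Chrng (chr1:87205561-87205860, plus strand): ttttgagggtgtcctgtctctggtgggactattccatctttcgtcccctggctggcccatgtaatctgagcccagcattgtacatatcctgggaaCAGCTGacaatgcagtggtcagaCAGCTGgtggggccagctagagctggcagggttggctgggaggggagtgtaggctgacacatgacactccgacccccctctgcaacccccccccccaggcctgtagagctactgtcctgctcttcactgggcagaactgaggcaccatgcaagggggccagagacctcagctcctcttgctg
Acta1 (chr8:123894726-123895025, minus strand): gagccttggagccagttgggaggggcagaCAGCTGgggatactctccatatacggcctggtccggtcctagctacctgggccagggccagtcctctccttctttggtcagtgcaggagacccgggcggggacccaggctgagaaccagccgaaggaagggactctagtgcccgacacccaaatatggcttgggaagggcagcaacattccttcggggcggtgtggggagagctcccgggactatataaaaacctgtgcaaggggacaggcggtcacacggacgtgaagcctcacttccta
The E-box was present in 16 of the 35 sarcomere promoters in the table (45.7%), in 9 of 19 of the creatine, glycogen and muscle energy enzymes (47.4%), in 6 of 15 for excitation-contraction coupling (40.0%) and in 5 of 10 for the synapse (50%). Among the 11378 tested genes with a promoter in the table the share was 15.7%, and over all 27025 promoters 16.1%. Among the mitosis genes it was 4 of 27 (14.8%), and among the basement membrane and collagen genes 2 of 23 (8.70%). Other lists were above the share of tested genes: Notch (5 of 18, 27.8%), cAMP (6 of 19, 31.6%) and pericyte and smooth muscle (4 of 9, 44.4%). Among the fusion genes it was 3 of 14 (21.4%) and among the myogenic regulators 2 of 11 (18.2%). A high share was thus not limited to the contractile lists. A match is a description of these letters and not of binding.

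The fuel and phosphocreatine enzymes of muscle followed the contractile genes. Of 24 genes, 22 were lower, none was higher and 2 (Ldhb and Gbe1) were not called, with a median of -4.12. Mb (myoglobin), the oxygen store, was at 8.66, 7.93 and 4.26 CPM against 744, 603 and 559 CPM (-6.52 ± 0.43). Fabp3, a fatty acid carrier, was at 1.5, 3.29 and 1.89 CPM against 131, 93.0 and 109.8 CPM (-5.64 ± 0.34). Ckm, muscle creatine kinase, was at 10.7, 21.8 and 4.50 CPM against 686, 907 and 716 CPM (-5.97 ± 0.55). Each differentiated library was well above each GFP+ MPC library, and GFP+ MPC replicate 2 was the highest of its group in Ckm and Fabp3. Without it the difference in Ckm was -6.67 and that in Cox6a2, a muscle subunit of cytochrome oxidase, moved from -5.76 to -6.57. With library sizes alone Gbe1 was called higher, at 0.52 (0.18 in the comparison as given).

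**Figure D3:**
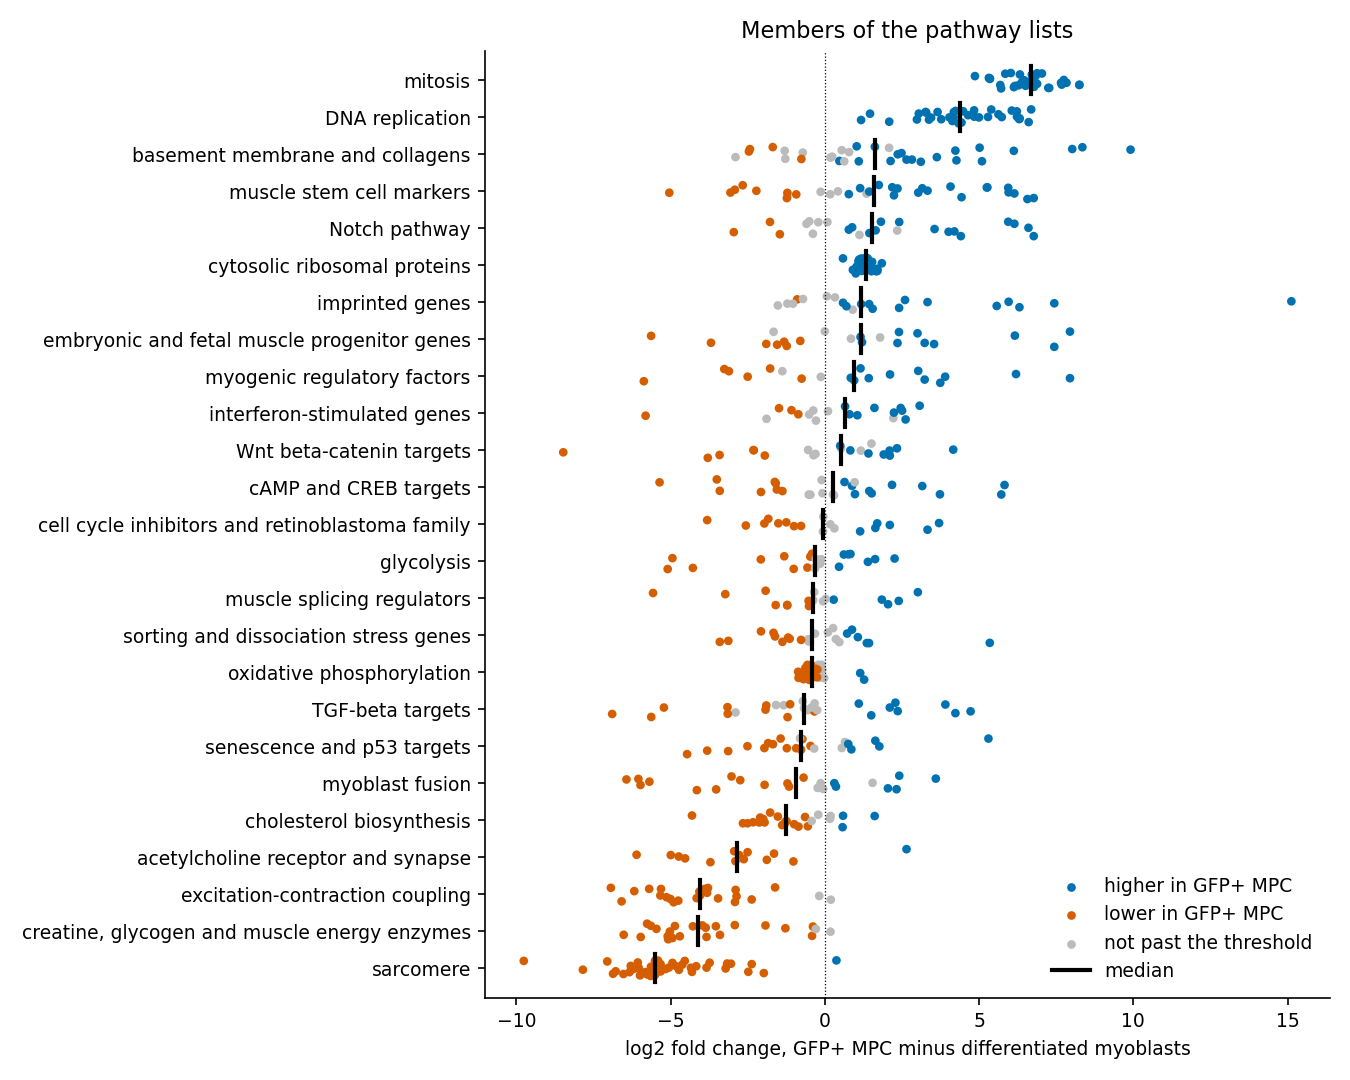
Log2 fold change of GFP+ MPC over differentiated myoblasts for every tested member of the 25 pathway lists, ordered by their median (black bar), with blue points called higher, orange points called lower and grey points not called. The mitosis and DNA replication lists lie wholly to the right and the muscle lists almost wholly to the left, and most signalling lists spread over both sides. Nnat, at the far right among the imprinted genes, has no count in the differentiated libraries and is drawn at its fitted value, which is no bound.

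Genes of cell division were higher in the GFP+ MPCs. All 34 DNA replication genes and all 32 mitosis genes tested were higher in the GFP+ MPCs, with medians of 4.38 and 6.67. The smallest difference was 1.18, in E2f2, in the first list and 4.87, in Ube2c, in the second, both picked here for their values. Mki67, whose protein marks cycling cells, was at 699.7, 924 and 765 CPM against 1.08, 3.82 and 3.04 CPM (8.25 ± 0.54). Top2a, which untangles DNA before division, was at 819, 1110.4 and 866 CPM against 1.67, 6.46 and 4.22 CPM (7.83 ± 0.53). Ttk, a kinase of the spindle checkpoint, was at 49.6, 54.9 and 49.1 CPM against 0.197, 0.225 and 0.281 CPM (7.75 ± 0.40, or 6.86 with length-scaled counts). In all 3 genes every differentiated library lay far below every GFP+ MPC library. Aurkb, the kinase of the chromosomal passenger complex, differed by 8.25 ± 0.56 and, without differentiated replicate 2, by 9.11.

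In DNA replication, Tk1 (thymidine kinase) was at 103, 125 and 99.7 CPM against 1.08, 1.07 and 1.01 CPM (6.69 ± 0.44). Mcm10, a DNA replication factor, was at 56.1, 58.5 and 65.6 CPM against 0.394, 0.843 and 0.618 CPM (6.61 ± 0.40). Uhrf1, which recruits DNA methylation to newly copied DNA, was at 242, 297 and 329 CPM against 2.95, 5.06 and 3.04 CPM (6.30 ± 0.41). The replicates of each group were close to each other in these genes, and the groups did not overlap. Cdc6, a licensing factor, differed by 6.32 ± 0.55, with 7.02 without differentiated replicate 2.

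The promoters of Mki67, Top2a and Ttk are shown because they hold the letters TTTGAA, the core of the cell cycle homology region (CHR) known from genes of late cell cycle. This motif was added after other results had been seen. Capitals mark TTTGAA or, where it lies on the other strand, TTCAAA, in the same RefSeq table and build.
Mki67 (chr7:135716330-135716629, minus strand): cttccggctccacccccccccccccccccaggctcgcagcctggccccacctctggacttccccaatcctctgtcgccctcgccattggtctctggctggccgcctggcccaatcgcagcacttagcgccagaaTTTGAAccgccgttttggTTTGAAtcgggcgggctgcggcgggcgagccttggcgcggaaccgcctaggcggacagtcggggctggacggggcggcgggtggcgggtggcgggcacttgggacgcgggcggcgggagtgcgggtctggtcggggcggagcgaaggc
Top2a (chr11:99024140-99024439, minus strand): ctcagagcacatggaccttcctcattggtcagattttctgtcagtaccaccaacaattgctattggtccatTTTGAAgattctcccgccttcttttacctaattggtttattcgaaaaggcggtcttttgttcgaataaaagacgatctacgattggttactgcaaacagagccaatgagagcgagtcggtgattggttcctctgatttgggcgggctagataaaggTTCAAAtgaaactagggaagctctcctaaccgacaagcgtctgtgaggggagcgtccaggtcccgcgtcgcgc
Ttk (chr9:83834439-83834738, plus strand): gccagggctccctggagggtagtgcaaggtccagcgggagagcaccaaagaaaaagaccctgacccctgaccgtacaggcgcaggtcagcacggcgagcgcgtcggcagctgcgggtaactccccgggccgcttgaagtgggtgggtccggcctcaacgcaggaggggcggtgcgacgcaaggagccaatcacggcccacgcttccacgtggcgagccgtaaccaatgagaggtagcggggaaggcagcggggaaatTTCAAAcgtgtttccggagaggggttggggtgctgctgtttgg
TTTGAA was present on either strand in 19 of the 27 mitosis promoters in the table (70.4%), in 4 of 27 DNA replication promoters (14.8%) and in 4 of 35 sarcomere promoters (11.4%). The share was 12.0% among the tested genes and 18.1% over all promoters. The letters say nothing of which factor, if any, was bound.

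Brakes of the cell cycle did not move as 1 group. Of 18 genes, 6 were higher, 8 were lower and 4 (Ccnd3, Rbl2, Cdkn2d and Btg1) were not called, with a median of -0.05. Scaling by library size alone turned this to 9 higher and 7 lower, with Cdkn2d (0.51, from 0.18) and Rbl2 (0.29) among those called higher. Cdkn1a (p21), an inhibitor tied to differentiation and DNA damage, was at 333, 168 and 232 CPM in the GFP+ MPCs and 3427, 3736 and 3122 CPM in the differentiated myoblasts (-3.81 ± 0.25). Rb1, the retinoblastoma protein, was at 31.2, 43.9 and 37.6 CPM against 242, 213 and 209 CPM (-2.56 ± 0.19). Its relative Rbl1 (p107) was at 54.1, 62.7 and 73.4 CPM against 4.43, 5.17 and 5.00 CPM (3.70 ± 0.28). The family members Rb1 and Rbl1 thus lay on opposite sides, and Rbl2 differed by -0.05 (0.29 with library sizes alone). Cdkn1c (p57), an imprinted inhibitor, was at 737, 1667 and 995 CPM against 111, 104 and 124 CPM (3.33 ± 0.59). Of the members not called, Btg1 (0.31) was called higher without GFP+ MPC replicate 1 (0.41) or 3 (0.39).

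Most of the Notch pathway genes tested were higher in the GFP+ MPCs. Of 24 tested, 14 were higher, 3 were lower and 7 were not called, with a median of 1.55. The summed level of the list was 3386 to 3772 CPM in the GFP+ MPCs and 973 to 1103 CPM in the differentiated myoblasts. Notch3, a receptor of satellite cells and pericytes, was at 1023, 1069.6 and 716 CPM against 8.42, 23.0 and 14.3 CPM (5.94 ± 0.48). Lfng, which adds sugars to the receptors and alters their choice of ligand, was at 24.5, 105 and 55.1 CPM against 0.542, 0.787 and 0.562 CPM (6.60 ± 0.69), with 5.98 without GFP+ MPC replicate 2. Hes6, known to counter the Hes repressors and to favour differentiation, ran the other way at 39.5, 30.0 and 57.8 CPM against 399.9, 285 and 299 CPM (-2.95 ± 0.28). So did Jag2, a ligand, at 56.6, 30.5 and 34.8 CPM against 157, 132 and 129 CPM (-1.78 ± 0.19). No GFP+ MPC library overlapped a differentiated one in these 4 genes. The letters TGGGAA, a core that the Notch partner RBPJ is known to bind, were in 4 of the 18 Notch pathway promoters in the table (22.2%) and in 23.0% of those of tested genes.

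Targets of Wnt and beta-catenin were mixed. Of 20 tested, 8 were higher, 6 were lower and 6 were not called, with a median of 0.51. These shares, 40% higher and 30% lower, were near those of all genes (35% and 35.6%). Axin2, a feedback inhibitor often used as the readout of the pathway, was lower in the GFP+ MPCs, at 8.75, 5.73 and 6.86 CPM against 26.0, 23.6 and 32.6 CPM (-1.94 ± 0.28). Porcn, the enzyme that lipid-modifies Wnt proteins, was at 8.89, 4.68 and 5.56 CPM against 86.8, 93.9 and 83.8 CPM (-3.79 ± 0.34). Lgr5, a receptor that strengthens Wnt signals, was at 65.3, 32.3 and 52.7 CPM against 2.71, 2.58 and 3.09 CPM (4.16 ± 0.39). The groups did not overlap in these genes. Wif1, a secreted inhibitor, had 2 counts over all GFP+ MPC libraries against 7.47 to 15.3 CPM in the differentiated ones. The level was 427 times as high in the differentiated myoblasts, with a 95% counting interval from 118 to 3533. Lgr6, a relative of Lgr5, was lower by the call (-3.41), which was lost without GFP+ MPC replicate 2 (-3.16) or 3 (-3.50) and which was -4.97 with length-scaled counts.

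TGF-beta targets moved in both directions. Of 27 tested, 8 were higher, 10 were lower and 9 were not called, with a median of -0.67, and with library sizes alone 8 were higher and 8 lower. Ccn2 (connective tissue growth factor) was at 0.0907, 0.126 and 0.0789 CPM against 7.58, 10.5 and 18.9 CPM (-6.89 ± 0.56). Pmepa1, a feedback inhibitor of the pathway, was at 8.25, 4.17 and 5.68 CPM against 307, 285 and 300.4 CPM (-5.63 ± 0.27). Thbs1 (thrombospondin), an activator of TGF-beta, was at 4.22, 2.07 and 8.56 CPM against 125, 193 and 236 CPM (-5.21 ± 0.52), with -5.88 without GFP+ MPC replicate 3. The 3 genes were low in every GFP+ MPC library. Col3a1, a fibrillar collagen, was higher instead, at 1509, 986 and 1019.5 CPM against 28.3, 89.2 and 69.6 CPM (4.23 ± 0.70). Postn (periostin) was at 15.3, 97.9 and 18 CPM against 0.394, 1.63 and 2.98 CPM (4.72 ± 1.17). Its highest library was GFP+ MPC replicate 2, without which the difference was 3.33, and without differentiated replicate 3 it was 5.45.

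Genes of the cAMP list moved in both directions. Of 25 genes, 10 were higher, 8 were lower and 7 were not called, with a median of 0.27. The shares of 40% higher and 32% lower were near those of all genes (35% and 35.6%). Without GFP+ MPC replicate 1 the counts turned to 8 higher and 10 lower with a median of -0.03. Pde3b, which breaks down cAMP, was at 37.9, 32.8 and 49.6 CPM against 0.443, 0.843 and 0.843 CPM (5.82 ± 0.39). Pde4b, of the cAMP-specific family, was at 164, 216 and 170.5 CPM against 13.3, 15.2 and 12.9 CPM (3.73 ± 0.20). Pde3a differed by 5.72 ± 0.68, with 6.36 without differentiated replicate 1. All 3 phosphodiesterases were higher in every GFP+ MPC library. Atf3, a stress and cAMP responsive factor, was at 0.816, 0.885 and 1.30 CPM against 9.21, 11 and 11.9 CPM (-3.40 ± 0.26). Nr4a3, an orphan nuclear receptor, was at 0.997, 0.928 and 1.42 CPM against 11.3, 13.7 and 13.2 CPM (-3.50 ± 0.38). Ppargc1a, a coactivator of mitochondrial genes, differed by -5.35 ± 0.56, with -6.07 without GFP+ MPC replicate 2. The cAMP response element TGACGTCA was in 2 of 19 promoters of this list (10.5%) and in 3.15% of those of tested genes. Higher shares stood in other lists, as in 3 of 17 for senescence and p53 (17.6%) and 3 of 24 ribosomal protein promoters (12.5%). Some lists had none, such as the Notch pathway with 0 of 18. The share is thus not particular to the cAMP list.

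Most matrix genes of the satellite cell niche were higher in the GFP+ MPCs. Of 33 genes, 19 were higher, 4 were lower and 10 were not called, with a median of 1.62. Col15a1, a basement membrane collagen, was at 1270.4, 1754 and 1520.2 CPM in the GFP+ MPCs and 0.0492, 0.112 and 4.67 CPM in the differentiated myoblasts (9.91 ± 1.26). Differentiated replicate 3 stood above the other two, and without it the difference was 14.13, a fitted value against very few counts. Without differentiated replicate 1 it was 9.30. Col6a1, a chain of collagen VI, was at 509, 361 and 316 CPM against 0.689, 1.40 and 2.53 CPM (8.02 ± 1.04), and its partner Col6a2 differed by 8.35 ± 1.36, with 9.06 without differentiated replicate 3. Against them, Lamb2, a laminin chain of the synaptic basement membrane, was at 86.7, 75.0 and 55.4 CPM against 412, 404 and 352 CPM (-2.43 ± 0.21). Col8a1 differed by -2.46, and by -3.69 without GFP+ MPC replicate 3. Col1a1, a member that was not called, was at 0.635, 2.40 and 0.749 CPM against 0.0492, 1.91 and 26.5 CPM, with differentiated replicate 3 apart from the rest. It is named here after its values were seen.

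Most of the oxidative phosphorylation genes tested were lower in the GFP+ MPCs, by small differences at the median. Of 30 oxidative phosphorylation genes, 20 were lower, 2 were higher and 8 were not called, with a median of -0.42, and with library sizes alone 9 were lower and 4 higher. Genes of the mitochondrial genome held 2.75% to 3.65% of the counts in the GFP+ MPC libraries and 5.4% to 6.34% in the differentiated ones. Ndufs3, a subunit of complex I, was at 78.3, 62.7 and 82.6 CPM against 140.3, 141 and 126 CPM (-0.87 ± 0.11). Cox8a and Cox6a1 are the forms of 2 cytochrome oxidase subunits found in most tissues. Cox8a was higher by 1.15 ± 0.11 and Cox6a1 by 1.27 ± 0.13. The muscle forms of the same subunits lay on the other side: Cox6a2 differed by -5.76 ± 0.50 (-6.57 without GFP+ MPC replicate 2) and Cox8b by -5.02. Cox8b is named here for being the partner of Cox8a.

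Glycolysis genes moved in both directions, and 7 of 21 were higher, 9 were lower and 5 were not called, with a median of -0.31. That is 33.3% higher and 42.9% lower, beside 35% and 35.6% of all genes. The majority rests on the scaling, since library sizes alone gave 7 higher and 5 lower. Pgam2, the muscle phosphoglycerate mutase, was at 9.02, 27.1 and 8.32 CPM against 530.0, 466 and 366 CPM (-4.94 ± 0.49, or -5.70 without GFP+ MPC replicate 2). Pgam1, the form of most tissues, was at 506, 378 and 364 CPM against 81.8, 84.5 and 94.1 CPM (2.26 ± 0.15). Pfkm, muscle phosphofructokinase, was at 78.8, 74.9 and 33.4 CPM against 1265, 1306 and 1053 CPM (-4.28 ± 0.31), while Pfkp was at 89.4, 61.9 and 63.3 CPM against 24.2, 23.4 and 21.8 CPM (1.63 ± 0.18). Pgam2 and Pfkm were higher in every differentiated library than in any GFP+ MPC library, and Pgam1 and Pfkp were lower. The members not called were Hk1, Hk2, Pkm, Ldhb and Slc16a3. Hk2 (-0.33) was called lower, at -0.87, without GFP+ MPC replicate 2, and Hk1 (-0.12) at -0.44 without replicate 1.

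Pkm, pyruvate kinase, was not called in total, and its transcripts held different shares in the 2 groups. The total of Pkm was at 2476, 1876 and 1791 CPM against 2533, 2757 and 2344 CPM (-0.31 ± 0.13), which missed the threshold (adjusted p = 0.0518) and passed it under 7 of the 16 alternatives, among them without GFP+ MPC replicate 1 (-0.47) or differentiated replicate 3 (-0.37). Its transcripts Pkm-201 and Pkm-202 differ in a pair of mutually exclusive exons of 167 bases each: in the annotation Pkm-202 has the upstream one, known as the M1 form of adult muscle, and Pkm-201 the downstream one, known as the M2 form of dividing cells. They also differ in the first exon (282 bases in Pkm-201, 77 in Pkm-202) and in the last (648 and 462 bases). The shares are thus of whole transcripts and not of the exclusive exons alone. By the deposited TPM, Pkm-201 held 72%, 74.2% and 74.6% of the gene in the GFP+ MPC libraries and 37.8%, 38.3% and 37.6% in the differentiated ones. Pkm-202 held 10.6%, 9.66% and 9.93% against 54.5%, 50.5% and 49.5%. Pkm-210, another coding transcript, held 14.9%, 13.04% and 13.5% against 4.26%, 8.17% and 9.76%, so that it stood above Pkm-202 in the GFP+ MPC libraries and below it in the differentiated ones. In the annotation Pkm-210 has neither of the exclusive exons. The order of Pkm-201 and Pkm-202 was opposite in the 2 groups, in every library.

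Tpm1 (alpha-tropomyosin) and Mef2d also differed in their transcripts. Tpm1-205 held 44.6%, 53.9% and 43.9% of the Tpm1 TPM in the GFP+ MPCs and 82.7%, 82.1% and 82.0% in the differentiated myoblasts. Mef2d-201 held 49.9%, 46.8% and 50.6% of the Mef2d TPM against 29.4%, 28.5% and 31.6%. Ldb3, a Z disc protein, changed less: Ldb3-207 held 47.9%, 47.4% and 50.7% against 57.1%, 57.8% and 56.7%. These shares come from the authors' assignment of single-end reads to transcripts that share most of their exons, and they were not tested.

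**Figure D4:**
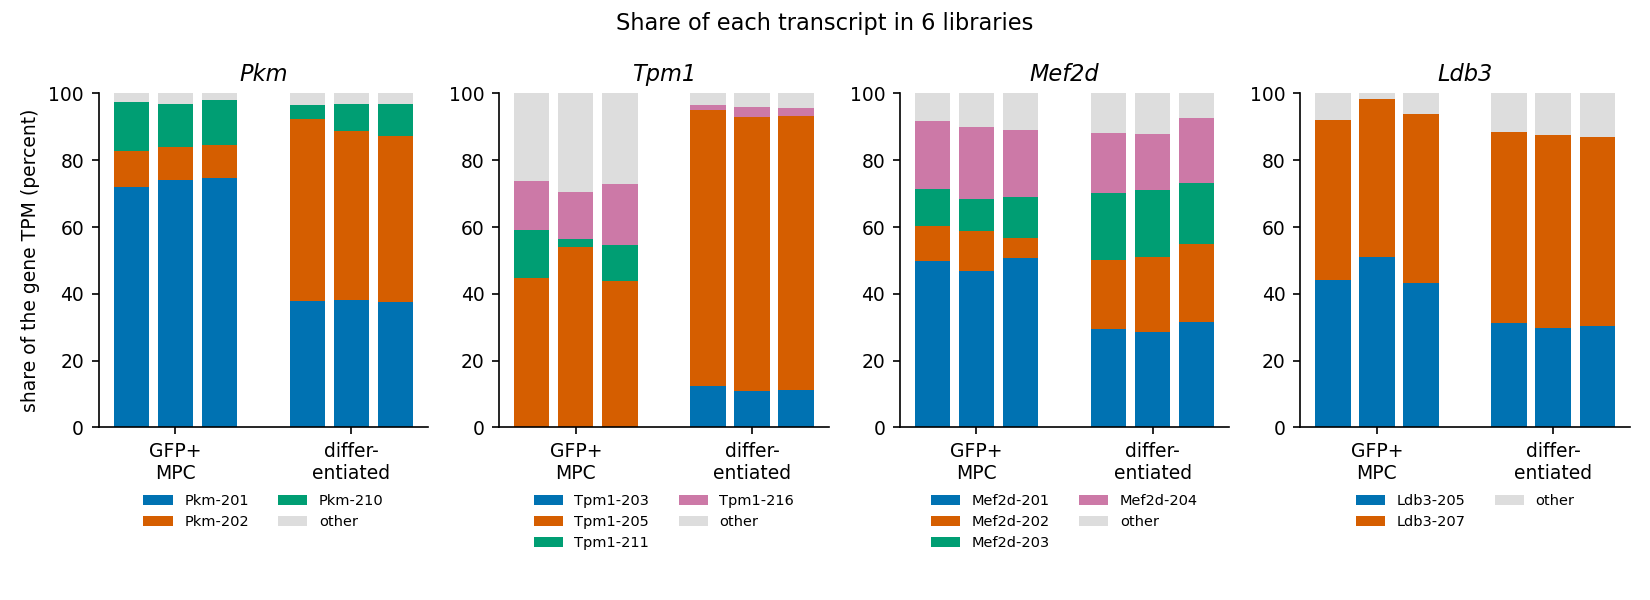
Share of the TPM of Pkm, Tpm1, Mef2d and Ldb3 held by each annotated transcript (percent, stacked to 100) in the 3 GFP+ MPC and the 3 differentiated libraries, in the order of their replicate numbers. In Pkm, Pkm-201 takes 72% to 74.6% in the GFP+ MPCs and 37.6% to 38.3% in the differentiated myoblasts, and grey stands for all other transcripts of the gene.

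Cholesterol synthesis genes were lower for the most part. Of 25 tested, 18 were lower, 3 were higher and 4 were not called, with a median of -1.27. Dhcr7, the enzyme of the last step, was at 28.6, 37.9 and 25.2 CPM against 209, 194 and 173 CPM (-2.65 ± 0.23). Mvd, an enzyme of the mevalonate steps, was at 11.2, 18.9 and 8.56 CPM against 64.4, 64.3 and 65.0 CPM (-2.33 ± 0.22). Every differentiated library was above every GFP+ MPC library in both. Srebf2, the transcription factor that drives the pathway, was at 289, 358 and 300.0 CPM against 236, 209 and 184 CPM (0.59 ± 0.12). Stard4, a sterol carrier, was at 39.5, 55.1 and 41.4 CPM against 13.8, 15.7 and 14.8 CPM (1.62 ± 0.26). Fdft1 (-0.43) and Lss (-0.21) were called lower without GFP+ MPC replicate 2, at -0.74 and -0.45, and Sqle (0.17) was called higher with library sizes alone, at 0.50. The media differed in serum, and its part was not tested.

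Targets of p53 and markers of senescence were lower in 13 of 22 cases and higher in 5, with a median of -0.79. Trp53 itself (p53) was at 168, 144 and 184 CPM against 44.0, 54.3 and 47.6 CPM (1.77 ± 0.14). Pmaip1 (Noxa), a trigger of apoptosis, was at 12.0, 9.61 and 11.2 CPM against 92.3, 108 and 88.0 CPM (-3.13 ± 0.28). Lmnb1 (lamin B1), whose loss marks senescent cells, was at 227, 267 and 289 CPM against 6.06, 6.69 and 7.08 CPM (5.30 ± 0.27). All 3 genes were without overlap between the groups. The members not called were Fas, Trp53inp1, Bax and Gdf15. Bax and Gdf15 were called higher with library sizes alone (0.89 and 0.99). Bax was called higher, at 0.84, and Gdf15, at 0.93, without GFP+ MPC replicate 2, Gdf15 also without differentiated replicate 2 (0.86), and Trp53inp1 lower, at -1.02, without GFP+ MPC replicate 1.

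Stress genes known to respond to dissociation and sorting were mixed in the sorted cells. Of 22 tested, 6 were higher, 9 were lower and 7 were not called, with a median of -0.42, and with library sizes alone 8 were higher and 8 lower. Hspb1, a small heat shock protein, was at 26.6, 22.9 and 33.8 CPM against 240.1, 236 and 252 CPM (-3.13 ± 0.14). Dnajb1, a heat shock cochaperone, was at 39.1, 40.1 and 52.1 CPM against 18.6, 13.9 and 16.1 CPM (1.43 ± 0.15). Socs3, an inhibitor of cytokine signals, was at 95, 26.5 and 41.1 CPM against 0.492, 2.47 and 1.07 CPM (5.35 ± 0.72), with 4.67 without GFP+ MPC replicate 1 and 6.13 without differentiated replicate 2. Interferon-stimulated genes were at low levels, with a sum of 88.1 to 115 CPM against 70.4 to 75.6 CPM. Beside 35% and 35.6% of all genes, 9 of the 19 tested were higher (47.4%) and 4 lower (21.1%). The stricter filter on low counts left 10 of them, 5 higher and 1 lower, and the 2 groups fitted alone left 13, 6 higher and 2 lower. The count of lower genes was 1 with library sizes alone, without GFP+ MPC replicate 3 or without differentiated replicate 3, and 6 without GFP+ MPC replicate 2.

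Regulators of muscle splicing were divided. Of 17 tested, 5 were higher (29.4%), 8 were lower (47.1%) and 4 (Celf1, Mbnl2, Mbnl3 and Srrm4) were not called, with a median of -0.38. The shares over all genes were 35% and 35.6%. Library sizes alone gave 6 higher and 6 lower splicing regulators, with Celf1 then called higher (0.28, from -0.06). Hnrnpa1, known to repress the M1 exon of Pkm, was at 1349, 1173 and 1421 CPM in the GFP+ MPCs and 172, 148 and 168 CPM in the differentiated myoblasts (3.02 ± 0.14). Ptbp1, known to act on the same exon, was at 257, 241 and 293 CPM against 44.7, 50.6 and 54.9 CPM (2.40 ± 0.27). Rbm38 was at 16.0, 29.3 and 19.4 CPM against 207, 196 and 202 CPM (-3.23 ± 0.24). The groups did not overlap in these 3 genes. Rbfox1, a muscle and neuron splicing factor, differed by -5.57 ± 0.42, with -6.33 without GFP+ MPC replicate 2.

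All 34 ribosomal protein genes tested were higher in the GFP+ MPCs, within a narrow range. Their differences ran from 0.59, in Rpl27, to 1.85, in Rps23, with a median of 1.34, and the median was between 1.23 and 1.67 under all 16 alternatives. The summed level was 30682 to 39687 CPM against 13710 to 14466 CPM. Rps23 was at 1030.2, 871 and 747 CPM against 234, 235 and 266 CPM (1.85 ± 0.12), and Rpl3 at 1916, 1672 and 1421 CPM against 526, 503 and 542 CPM (1.67 ± 0.12). GFP+ MPC replicate 1 was the highest and replicate 3 the lowest of its group in both. Many of these genes have processed copies elsewhere in the genome that can share their reads, so single values are less certain than the common direction.

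Imprinted genes, many of which control growth in the fetus, were higher in 13 of 21 cases, lower in 1 and not called in 7, with a median of 1.18. Mest, a hydrolase-like enzyme, was at 1592, 2202 and 2353 CPM against 18.2, 36.0 and 44.9 CPM (5.96 ± 0.42). Dlk1, a membrane protein related to the Notch ligands, was at 475, 231 and 249.8 CPM against 2.31, 0.112 and 3.04 CPM (7.44 ± 0.69). Nnat (neuronatin), a small membrane protein, was at 164, 123 and 296 CPM against 0 in all 3 differentiated libraries, at least 3681-fold higher by a floor of 3 counts over the group. These genes were high in all 3 GFP+ MPC libraries. H19, an imprinted non-coding RNA, was the member that was lower, at 8644, 14263 and 10183 CPM against 22786, 19736 and 19077 CPM (-0.90 ± 0.19). Slc38a4, an amino acid transporter, differed by 6.31 (5.70 with length-scaled counts), and by 4.65 without GFP+ MPC replicate 2, which was at 175 CPM against 23.7 and 22.9 CPM in the other two.

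Genes known from embryonic and fetal muscle progenitors gave 10 higher, 7 lower and 4 not called of 21, with a median of 1.16. Gli2, a transcription factor of hedgehog signalling, was at 6.48, 22.2 and 11 CPM against 0.0985, 0.169 and 0.281 CPM (6.16 ± 0.73, or 5.57 without GFP+ MPC replicate 2). Lbx1, a homeobox factor of migrating limb precursors, was at 7.75, 1.81 and 1.30 CPM against 44.8, 42.2 and 52.0 CPM (-3.69 ± 0.55, or -4.89 without GFP+ MPC replicate 1). The groups were apart in both. Not called were Sim1, Tbx1, Igf2bp3 and Meox1. Without GFP+ MPC replicate 2 Sim1 was called lower (-3.52, from -1.66), and without replicate 1 Igf2bp3 (1.37, from 0.85) and Meox1 (2.21, from 1.79) were called higher, Meox1 also without differentiated replicate 3 (2.41).

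Markers of other cell types that a muscle culture could hold were low or moved in both directions, and their part in the differences above was not tested. Of 12 fibroblast and fibro-adipogenic progenitor genes tested, 3 were higher and 3 lower. Their summed level was 1114 to 1686 CPM in the GFP+ MPCs and 234 to 315 CPM in the differentiated myoblasts, most of the first being Col3a1, and Lum had no count in any of the 6 libraries. Pdgfra, their defining receptor, was at 0.272, 0.422 and 0.197 CPM against 3.25, 1.80 and 2.70 CPM (-3.10 ± 1.00). Thy1 was higher by 5.56 ± 1.04 and Fap by 7.73 ± 0.96, and Cd55 differed by -7.01 ± 0.80. Length-scaled counts gave 6.23 for Thy1, 6.33 for Fap and -2.23 for Pdgfra. The pericyte and smooth muscle list, which shares Notch3 with the Notch list and Des with the stem cell list, gave 6 higher and 5 lower of 12, with sums of 2218 to 2331 CPM against 6098 to 6842 CPM. Its receptor Pdgfrb was at 83.3, 145 and 98.5 CPM against 0.936, 0.449 and 2.53 CPM (6.39 ± 1.12, or 7.26 without differentiated replicate 3). Mylk, of the same list, ran the other way at -5.29 (-4.48 with length-scaled counts).

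Schwann cell genes summed to 271 to 409.6 CPM against 531 to 572 CPM, most of the second being Erbb3, with 2 higher, 1 lower and 4 not called of 7 tested. Sox10 and Cdh19 had no count in any of the 6 libraries, whereas Pmp22, a myelin and growth arrest gene, was at 136, 166 and 144 CPM against 6.35, 12.1 and 8.49 CPM (4.05 ± 0.30). Ngfr, a neurotrophin receptor, was at 49.1, 57.3 and 96.1 CPM against 1.72, 2.36 and 1.63 CPM (5.15 ± 0.55). Both were higher in each GFP+ MPC library than in any differentiated one. Endothelial genes summed to 18.1 to 25.1 CPM against 15 to 19 CPM, with 3 higher and 3 lower of 7, and macrophage and leukocyte genes to 3.54 to 8.28 CPM against 12.4 to 16.7 CPM, with 1 higher and 1 lower of 4. The other 10 leukocyte markers did not reach the filter on low counts, and C1qa, C1qb and Cd52 had no count. Tenocyte genes gave 3 higher and 2 lower of 6, with sums of 283 to 443 CPM against 154 to 201 CPM, and Tnmd and Kera had no count. Adipocyte genes gave 2 higher and 2 lower of 4, with sums of 235 to 366 CPM against 89.0 to 114 CPM, most of the first being Lpl, lipoprotein lipase, at 228, 362 and 321 CPM against 9.16, 9.21 and 9.27 CPM (5.04 ± 0.28). Adipoq had no count, and Cebpa (1.43) was not called without GFP+ MPC replicate 1 (0.98), nor Pparg (-1.81) without differentiated replicate 1 (-1.61).

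The protein-coding genes furthest apart, among those at 10 CPM or more in one group, were genes nearly silent in the other. On the side of the GFP+ MPCs, the 10 were Nnat, Tmc3, Adamts15, Gpc3, Stk26, Ptn, Agtr2, Col15a1, Car12 and Depdc1b. Gpc3 (glypican 3), a cell surface proteoglycan, was at 601, 315 and 505 CPM against 0.148, 0.0562 and 0.0562 CPM (12.29 ± 0.60, or 12.91 without differentiated replicate 1). Adamts15, a secreted protease of the matrix, was at 155, 196 and 215 CPM against 0, 0 and 0.0562 CPM, a ratio of 10613 with a 95% counting interval from 1904 to 419222. Ptn (pleiotrophin), a heparin-binding growth factor, was at 58.2, 87.7 and 23.2 CPM against 0.0985, 0 and 0 CPM, a ratio of 1552 (429 to 12819.5). Tmc3 was at 15.9, 250.3 and 21.8 CPM against 0 in all differentiated libraries, at least 1792-fold higher, with GFP+ MPC replicate 2 far above the other two. Without replicate 2 its fitted difference fell from 14.10 to 11.75. Stk26, a kinase, was at least 229-fold higher by the same floor, with a fitted difference of 11.15 that was 10.28 without GFP+ MPC replicate 2. The single differentiated counts of Adamts15 and Depdc1b were in replicate 3, and those of Ptn were in replicate 1, so that without these libraries there is no count to compare with. Car12, a carbonic anhydrase, was at 88.2, 11.9 and 14.9 CPM against 0.0492, 0.112 and 0 CPM, a ratio of 682 (233 to 3309.6). Its fitted difference of 9.34 was 7.83 without GFP+ MPC replicate 1, 10.24 without differentiated replicate 2 and 8.14 with length-scaled counts. The ratio was 1190.5 (329 to 9835) for Agtr2, an angiotensin receptor, and 752 (135 to 29733) for Depdc1b, and with length-scaled counts their fitted differences fell from 9.98 to 7.32 and from 9.17 to 8.03.

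On the other side, the 10 were Fgfbp1, Ppfibp2, Gabrb2, Adamtsl2, Dpp6, Srpx2, Myh2, Mamld1, Wfdc1 and Gja3. Fgfbp1, a carrier of secreted FGFs, had no count in the GFP+ MPC libraries and was at 51.4, 39.4 and 38.7 CPM in the differentiated ones, at least 1033-fold lower in the GFP+ MPCs. Ppfibp2, a scaffold of the liprin family, was at 0 against 19.1, 21.6 and 27.8 CPM, at least 537-fold lower. Gabrb2, a subunit of the GABA-A receptor, was at 0 against 22.8, 7.47 and 10.1 CPM, at least 329-fold lower, with differentiated replicate 1 the highest (fitted differences of -11.27 with it and -10.67 without it). Dpp6, a potassium channel partner, was at 0, 0 and 0.0394 CPM against 42.3, 40.6 and 22 CPM, 2509.6 times as high in the differentiated myoblasts (449.9 to 99171). Adamtsl2, a matrix glycoprotein, was at 0, 0.126 and 0.0789 CPM against 148, 159 and 179.5 CPM (-11.06 ± 0.59, or -11.73 without GFP+ MPC replicate 2). The levels of Srpx2, Mamld1 and Wfdc1 were 1112 (307 to 9191), 956 (264 to 7899) and 918 (164 to 36290.4) times as high in the differentiated myoblasts. Their few GFP+ MPC counts, and those of Dpp6, were in 1 library each, replicate 3 for Srpx2 and Dpp6, replicate 2 for Mamld1 and replicate 1 for Wfdc1, without which there is no count to compare with. Gja3, a connexin, was at 0, 0.0422 and 0.118 CPM against 40.1, 26.5 and 41.6 CPM (-9.20 ± 0.97, or -10.36 without GFP+ MPC replicate 3).

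To see which of these differences set the GFP+ MPCs apart from other cultures, the same fit was read against 2 further groups of 3 libraries. The unsorted (bulk) myoblasts, also in the fit, are not set beside them here. GFP+ myoblasts were sorted on the same reporter at passage 5 to 6 without the compounds, and bulk MPCs were the unsorted cultures grown in the same compound medium. These contrasts share the GFP+ MPC libraries with the comparison above, so their values are set side by side only. The sarcomere list summed to 3531 to 4055 CPM in the GFP+ myoblasts and 124429 to 167194 CPM in the bulk MPCs, beside 3000.4 to 6329 CPM in the GFP+ MPCs and 126758 to 145891 CPM in the differentiated myoblasts. The mitosis list summed to 3006 to 4978 CPM in the GFP+ myoblasts and 457 to 1212 CPM in the bulk MPCs, beside 6187 to 7502 and 45.2 to 86.9 CPM. The range of the sarcomere sum in the unsorted MPC cultures overlapped that of the differentiated myoblasts.

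**Figure D5:**
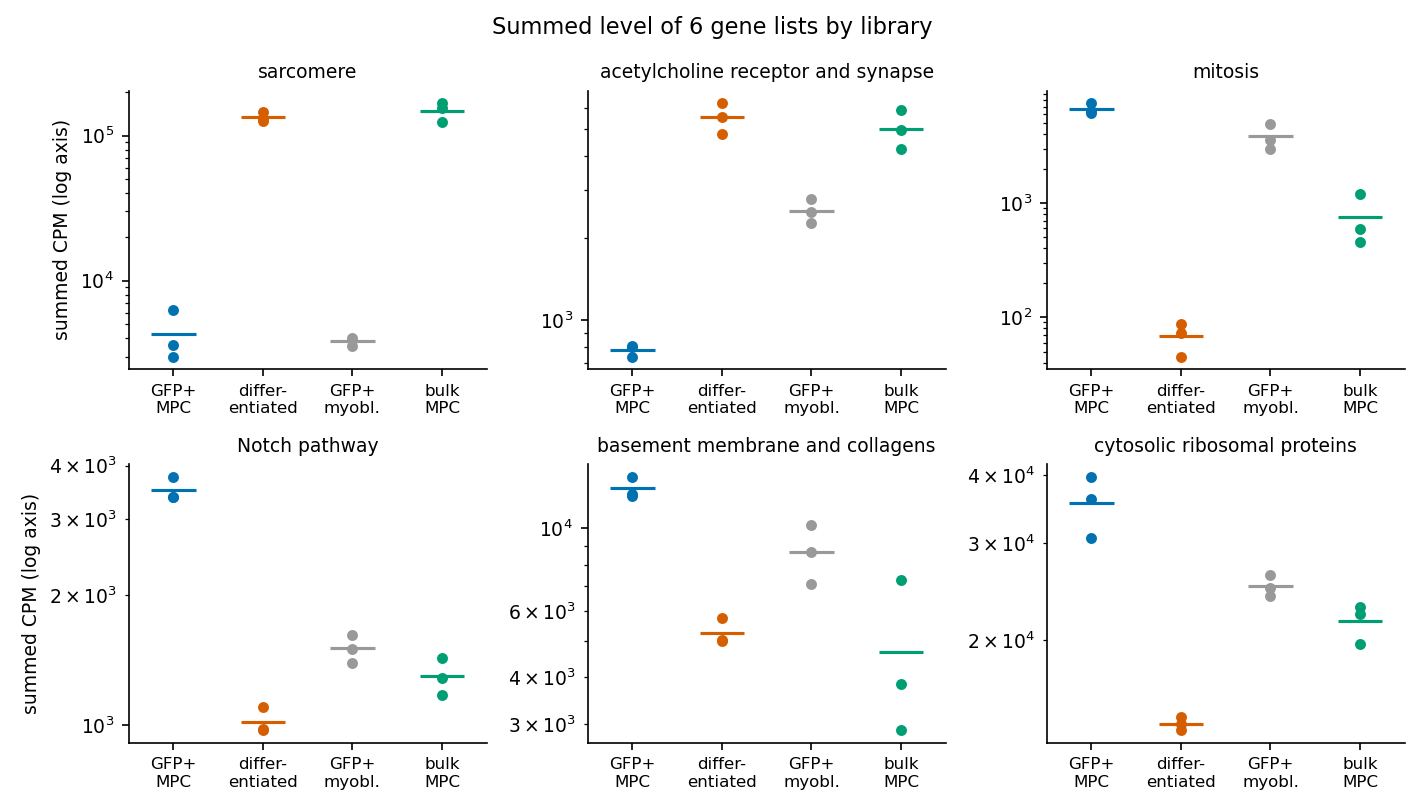
Summed CPM (log axis, which differs between panels) of the tested members of 6 gene lists in each library of the GFP+ MPCs, differentiated myoblasts, GFP+ myoblasts and bulk MPCs, with the group mean as a line. The sorted groups lie together in the sarcomere panel, while in the Notch panel the GFP+ MPCs (3386 to 3772 CPM) lie above the 3 other groups.

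Single genes fell into different patterns over the 4 groups. Pax7 differed little between the sorted groups, at 902 ± 92.2 CPM (SD, n = 3) in the GFP+ myoblasts (difference -0.24 ± 0.33, adjusted p = 0.577). Hey1 was at 5.01 ± 1.62 CPM in the GFP+ myoblasts and 15.5 ± 5.17 CPM in the bulk MPCs, so that the GFP+ MPCs were higher than each by 4.83 ± 0.31 and 3.20 ± 0.28. Gpc3 was at 0.144 ± 0.0907 and 48.8 ± 17.5 CPM, lower than the GFP+ MPCs by 11.57 ± 0.55 and 3.28 ± 0.34. In Hey1 and Gpc3 the GFP+ MPCs had the highest mean of the 4 groups. Cdkn1c was at 2.75 ± 1.69 CPM in the GFP+ myoblasts and at 946 ± 26.0 CPM in the bulk MPCs, above the first by 8.64 ± 0.77 and not different by the test from the second (0.26 ± 0.54, adjusted p = 0.688). Myod1 was highest in the GFP+ myoblasts, at 918 ± 35.3 CPM (-2.23 ± 0.28), and Myog was as low there as in the GFP+ MPCs, at 94.9 ± 58.4 CPM (0.14 ± 0.43, adjusted p = 0.807). Chrna1 was at 1416 ± 185 CPM in the GFP+ myoblasts, above the GFP+ MPCs by 4.14 ± 0.26 (log2), and at 2547 ± 344 CPM in the differentiated myoblasts. Axin2 was at 0.264 ± 0.0349 CPM in the GFP+ myoblasts and 16.7 ± 0.696 CPM in the bulk MPCs, so that the GFP+ MPCs were above the former (4.72 ± 0.38) and below the latter (-1.23 ± 0.28), as they were below the differentiated myoblasts.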

How the data were processed

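RNA of 16 libraries was sequenced as single-end reads of stranded poly(A) libraries, per the labels' protocols. Per the submitters' processing notes, fastp 0.20.0 and kallisto 0.46.1 were used, with the build GRCm39. The deposited files give for each of 121798 transcripts an estimated count, an effective length and a TPM value made by the authors. Of the transcripts, 120739 matched a GENCODE M21 annotation. It was used here to assign transcripts to genes and for gene names, gene classes, chromosomes and exon order. The 1059 other transcripts held 0.478% to 1.05% of the counts and were left out.

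Estimated counts were summed per gene (35613 genes) and rounded to whole numbers. Genes passed edgeR's filter (minimum count 10, minimum total 15), and 15533 were tested in edgeR 4.0.16 (R 4.3.3, limma 3.58.1) with TMM factors and the quasi-likelihood test. All 15 libraries of the 5 replicated groups shared 1 estimate of the spread (10 residual degrees of freedom), and p-values were adjusted by Benjamini and Hochberg over all genes with a threshold of 0.05. The single high-passage library was left out of the fit. The SE is the log2 fold change divided by the root of the F statistic. A group without counts was set to a floor of 3 counts over its libraries, and ratios with 1 to 3 counts have exact 95% intervals, which cover counting error only. Transcript shares come from the deposited TPM.

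Members and gene lists were chosen with earlier results of these data known. Named genes were 14 allowed in any case; for each list up to 4 called members with the largest difference and no overlap of groups, up to 2 against the majority and the members not called where these were 5 or fewer; and the 10 largest rises and falls among protein-coding genes of at least 10 CPM. Alternatives were the 2 groups fitted alone, DESeq2 1.42.0, other scalings and filters, length-scaled counts and the replicate number as a block. Single libraries were also left out in turn, namely each of the 6 compared and bulk MPC replicate 2. Replicates of a group differed by more than sampling noise (chi-square per degree of freedom between 10.6 and 64.1). Promoters were read from a RefSeq table of build GRCm38.p6. Some genes that the rule for named genes would take are not reported here.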

Additional observations from a re-analysis of the deposited data

How the results depend on the processing

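Taking for each list the count in 1 direction, 589 values under the alternatives stayed within 1.5 times the count first given and 5 did not. Library sizes alone left 9 oxidative phosphorylation genes and 5 glycolysis genes lower. The stricter filter on low counts left 5 interferon-stimulated genes and 1 endothelial marker higher. In the direction not so counted, library sizes alone moved the higher genes of oxidative phosphorylation from 2 to 4 and of cholesterol synthesis from 3 to 5, DESeq2 moved the lower Notch genes from 3 to 5, and the lower interferon-stimulated genes went from 4 to 1 with library sizes alone. Leaving out single libraries in turn gave 1 to 2 adipocyte markers higher. Tpm3 turned from 0.38 to -0.37 with length-scaled counts. Over the named genes, 175 of 209 kept their side of the threshold and their direction under the alternatives run. The number of genes called was between 10334 and 11093 when single libraries were left out, and it was 9955 of 14213 tested with the 2 groups fitted alone and 11092 with DESeq2. With the replicate number as a replicate block, 10837 genes were called. Libraries of the same number did not deviate together (correlations of -0.04, -0.05 and -0.00037). These values give no sign of a pairing by number, but they cannot exclude that libraries of the same number share a parental line. Depth limits the genes with few counts: where a group held 3 counts or fewer, the difference is given as a bound or with a counting interval. With 3 libraries a group and treatment, sort, kit and medium changing together, no difference can be assigned to any 1 of them.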

Other observations

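The classes of transcripts differed in their balance of calls. Of 13798 protein-coding genes tested, 5085 were higher in the GFP+ MPCs and 4933 lower. Of 555 lincRNA genes 94 were higher and 236 lower, and of 365 antisense genes 58 were higher and 140 lower. The libraries are stranded per the labels' protocols, whereas the strand setting of the quantification is not given in the sources used here, and without it reads of an antisense gene and of its partner cannot be told apart.

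One further GFP+ MPC library was made from myoblasts of high passage (passage 8), kept for 2 passages in the MPC medium. Its parental line came from a female animal 39 weeks old, so passage, sex and age cannot be told apart. It has no replicate and entered no test. Its values, for genes picked after they were seen, were on both sides of the 3 libraries described above. Nnat was at 0 CPM and Gpc3 at 3.86 CPM there, while Dlk1 was at 1551 CPM. Pax7 was at 303 CPM and Cdkn1c at 1904 CPM.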
